A study of Mus musculus with 10 samples.

Results

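Chemokines are small secreted proteins that attract cells, and their receptors are the G-protein-coupled receptors through which cells sense them. Values of 18901 genes are listed for mouse fibroblasts, a partially reprogrammed line and induced pluripotent stem (iPS) cells. The 46 genes described here are every chemokine and chemokine receptor among them whose symbol follows the systematic naming (*Cxcl*, *Ccl*, *Cx3cl1*, *Cxcr*, *Ccr* and *Cx3cr1*, each with its number). They were chosen by symbol and not by their values. Of the 46, 29 are ligands and 17 are receptors, and 38 reached 10 in 2 or more libraries, which was required for a test.

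RNA of 5 lines was sequenced, with 2 libraries for each line and 10 in all. Oct4-GFP MEF are embryonic fibroblasts whose *Oct4* gene drives green fluorescent protein, from a cross of mf1 and 129 mice, grown in DMEM with 10% FCS and taken at passages 2 and 4. The pre-iPS line is a partially reprogrammed line that has not reactivated that reporter. The 'control' iPS line is 1 clone, and 2 further iPS clones, called 'rNetrin-1-derived' clone 1 and clone 2, were obtained with recombinant Netrin-1, a secreted guidance protein that also serves as a survival ligand, in the medium. All of the reprogrammed lines were made from such MEF with retroviruses for Oct4, Sox2, Klf4 and c-Myc, were kept in KSR+LIF medium, on gelatin or on irradiated MEF feeders (which of them is not stated for each library), and were taken at passages 5 and 25. Each reprogrammed line is a single line, and its passages are repeated samples of it, so a p here sets lines and their passages against each other and not independently derived clones.

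Chemokines bear a conserved cysteine motif after which the CC, CXC and CX3C families are named. CXC ligands with the ELR motif draw neutrophils through *Cxcr2*, the interferon-induced CXC ligands draw T cells through *Cxcr3*, and many CC ligands draw monocytes and macrophages. In fibroblasts, NF-kB and interferon signalling are the known inducers of many of these genes, whereas Cxcl12 is made without stimulation and keeps stem and progenitor cells in place through *Cxcr4*. Bulk RNA gives a mean over all cells of a library, so fewer cells of a type and less RNA per cell cannot be told apart.

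The values are pseudo-counts, that is, read counts that edgeR was used to adjust for library size before deposit, and 1 read was worth 0.888 to 1.04 of this unit in the reprogrammed lines. The libraries held 38110410 to 52946858 reads on genes. The pluripotency genes separated the lines as labelled: all 9 listed (among them *Nanog*, *Esrrb* and *Dppa3*) were lower in MEF than in the iPS lines, and 6 of the 9 were lower, and *Pou5f1* higher, in pre-iPS than in iPS cells. All 12 fibroblast genes listed (among them *Col1a1*, *Lum* and *Postn*) were higher in MEF. They were not at 0 in the other lines: the mean of the iPS libraries was 0.12% of the MEF mean for *Lum*, 0.67% for *Col1a1* and 26.4% for *Twist2*. Of 16 macrophage markers tested, 15 were higher in MEF. Their summed level was 20038 and 19845 in MEF and 975 to 6775 elsewhere, of which *Laptm5* made up 4719 and 4711 in pre-iPS cells. Among the 15, *C1qb*, *C1qc*, *Tyrobp* and *Emr1* were at 525 to 885 in MEF and at 0 to 4.47 in all other libraries. *Cd68*, the exception, had 767 and 715 in MEF, 1565 and 853 in the pre-iPS line and 354 to 1124 in iPS libraries. Of the endothelial markers tested 4 of 4 were lower in MEF than in iPS cells. Their summed level, with the untested *Emcn*, was 134 and 112 in MEF, 2606 and 3159 in the pre-iPS line and 1290.3 to 1861 in iPS libraries. *Tek* made up 1975 and 2549 of the sum in the pre-iPS line. *Emcn* went the other way, with 6.99 and 4.26 in MEF and 0 to 1.78 elsewhere. Of the lymphocyte markers 4 of 5 were lower in MEF. The pair of MEF libraries lay much closer together than the pairs of the other lines, with a chi-square per gene of 3.02 against 42.1 to 58.7.

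MEF devoted far more of their RNA to these genes than any reprogrammed line did. The 46 genes came to 1683 and 1710 RPM (reads scaled to the library total) for MEF, while the other 8 libraries had 175.7 to 248.6. Most of that was *Cxcl12*, and without it the figures were 538.6 and 544.3 in MEF and 139.4 to 205.0 elsewhere. Between 41 and 44 of the 46 were detected with at least 1 read in each library. The order of levels also differed. Per kilobase of exon, *Cxcl12* led in MEF with a mean level of 7909, followed by *Cxcl14* with 5450, *Ccl7* with 2983, *Cxcl5* with 2499 and *Ccl2* with 1774. In the iPS lines *Ccl2* came first with a level per kilobase of 900.6 ± 271 (SD, n = 6), then *Ccl5* with 482 ± 187, *Cxcr2* with 392 ± 117, *Cxcl1* with 271 ± 71.1 and *Cxcr7* with 259 ± 94.8. In that order *Ccl5* and *Cxcr2* lay within an SD of each other, as did *Cxcl1* and *Cxcr7*. In pre-iPS cells *Ccl2* with 608 ± 44.0 (SD, n = 2), *Cxcr7* with 384 ± 34.2 and *Ccl5* with 383 ± 110 led, the last pair being indistinguishable.

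**Figure D1:**
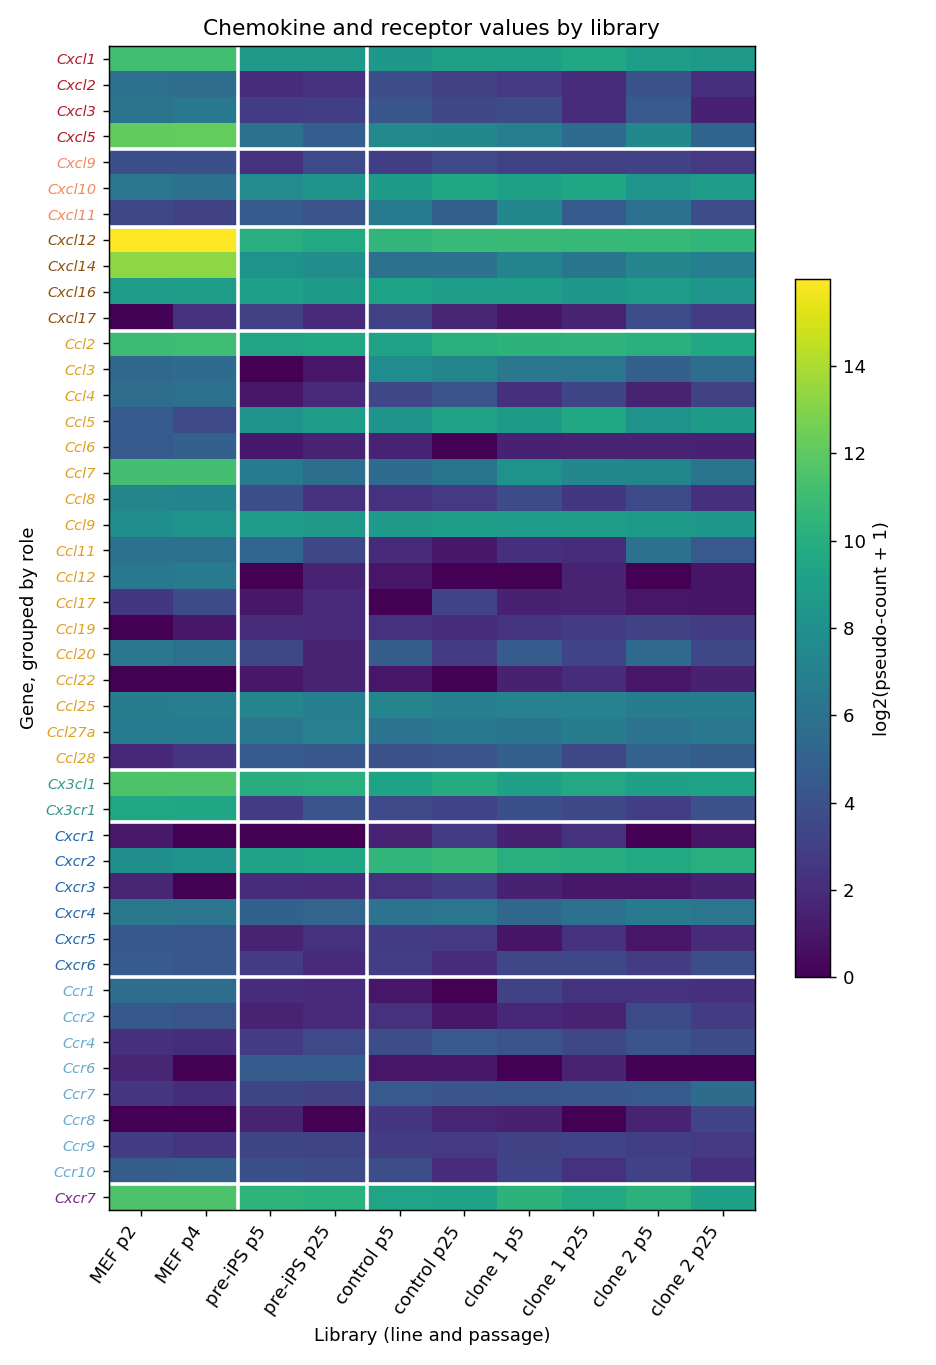
The colour gives log2(pseudo-count + 1) of the genes (rows, grouped by role) in each of the 10 libraries (columns). The MEF columns are the brightest for *Cxcl12*, *Cxcl14* and *Cxcl5*, whereas *Ccl5*, *Cxcl10* and *Cxcr2* are lower in MEF than in each of the other 8 libraries.

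Fibroblasts were first set against fully reprogrammed cells, which asks what of the chemokine system is gone once the cells are pluripotent. Of the 38 genes tested, 30 differed between MEF and the mean of the 3 iPS lines, 23 higher and 7 lower in MEF, where a call needs a limma adjusted p under 0.05 together with a log2 fold change of 1 or more in size. Among all 17075 genes tested, 48.2% differed by this rule, 21.6% higher and 26.6% lower in MEF. The median log2 fold change was 2.00 over the 38 genes and -0.09 over all genes. By role, 15 of 25 ligands tested were higher in MEF and 4 lower, and 8 of 13 receptors were higher and 3 lower. With quantile normalization 24 were higher and 3 lower, where 46.7% of all genes were called. Scaling to 4 housekeeping genes moved the median of all genes to 0.30. It gave 24 higher and 6 lower, with 51.1% of all genes called.

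**Figure D2:**
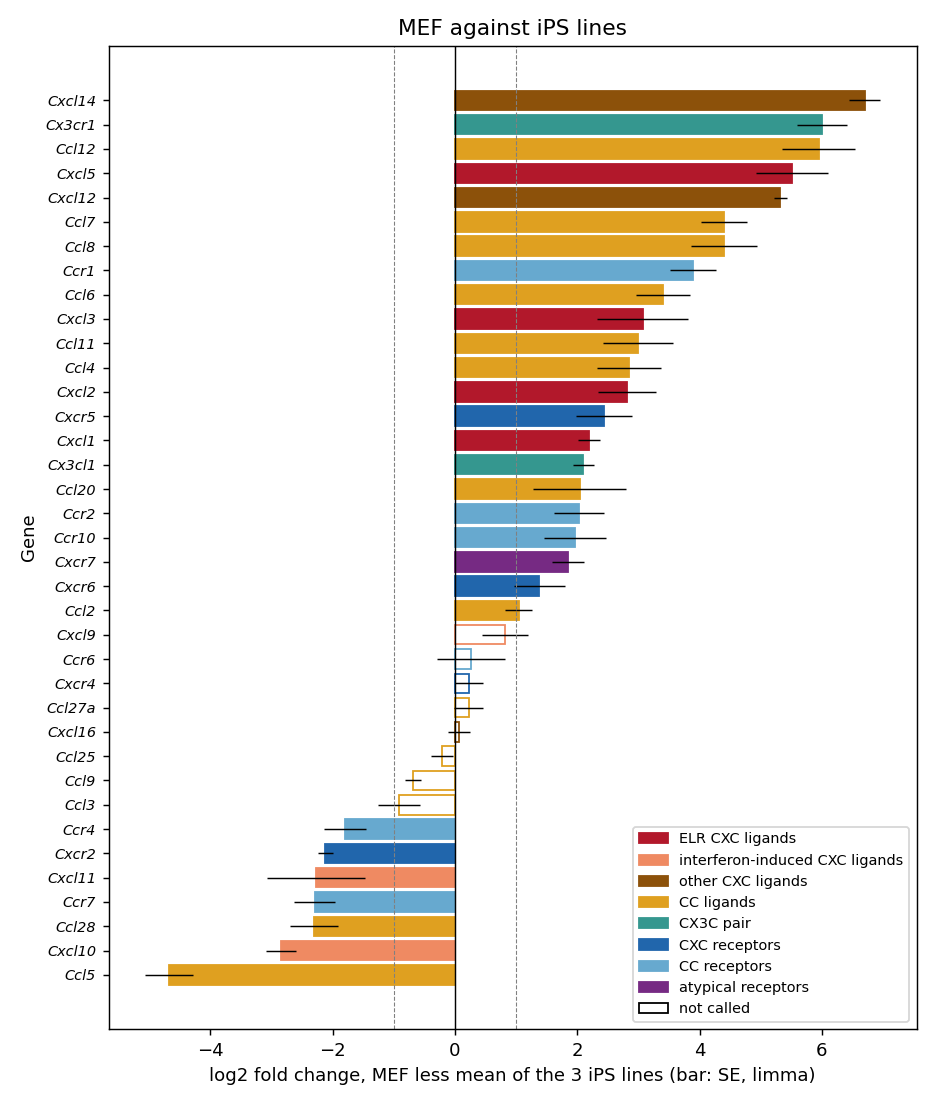
Each bar is the log2 fold change of a gene, MEF less the mean of the 3 iPS lines, with its SE from limma, coloured by role and unfilled where the call rule was not met; dashed lines mark an absolute log2 fold change of 1. Bars run from 6.70 for *Cxcl14* to -4.67 for *Ccl5*, and most filled bars point towards MEF.

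All 4 ELR CXC ligands were higher in MEF. *Cxcl5*, a neutrophil attractant, had a value of 4609.7 at passage 2 and 4699.9 at passage 4 of MEF, against a lowest value of 34.9, a median of 141 and a highest of 181 in the 6 iPS libraries. MEF thus exceeded iPS cells by 5.51 ± 0.59 on the log2 scale (SE, with limma's adjusted p = 2.69e-05). *Cxcl1*, another ligand of *Cxcr2*, had 2239 and 2285 in MEF and 365, 514 and 729 as the lowest, median and highest of the iPS libraries (log2 fold change 2.19 ± 0.18, adjusted p = 4.58e-06). For both genes the groups did not overlap, but *Cxcl1* kept 22.4% of its MEF level in iPS cells and *Cxcl5* only 2.6%. *Cxcl2* and *Cxcl3*, which share that receptor, were far lower throughout, with 50.7 to 86.3 in MEF and 1.78 to 20.8 in iPS libraries, and log2 fold changes of 2.81 ± 0.48 and 3.07 ± 0.75. Their receptor went the other way. *Cxcr2* had 252 and 279 in MEF, 591 and 697 in the pre-iPS line and 842, 1044 and 1783 as the lowest, median and highest of the iPS libraries, a log2 fold change of -2.12 ± 0.13 (adjusted p = 6.82e-07).

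These ligands lie close together on chromosome 5 (*Cxcl5* at chr5:90759360-90761624, *Cxcl3* at chr5:90786103-90789600, *Cxcl1* at chr5:90891241-90893115 and *Cxcl2* at chr5:90903871-90905938, all on the plus strand of GRCm38 in GENCODE M21). RefSeq promoter windows (GRCm38.p6, 250 bases before to 50 after each start) were found for 33 of the 46 genes, 37 windows in all. Both strands were searched for an NF-kB-like motif, GGGNNNTTCC. It was found in the windows of 7 of the 33 genes, *Cxcl1*, *Cxcl2*, *Cxcl3*, *Cxcl10*, *Ccl20*, *Ccl9* and *Ccr6*, and in 5.56% of all 32851 windows. The stretch from 120 to 41 bases before the start is printed for the 3 ELR ligands with a window and for *Ccl20*, which was also higher in MEF, with matches in capitals. Overlapping matches on opposite strands run together.
Cxcl1: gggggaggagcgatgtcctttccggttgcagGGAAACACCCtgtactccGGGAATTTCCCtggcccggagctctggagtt
Cxcl2: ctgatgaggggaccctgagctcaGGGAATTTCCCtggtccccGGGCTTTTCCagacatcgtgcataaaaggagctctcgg
Cxcl3: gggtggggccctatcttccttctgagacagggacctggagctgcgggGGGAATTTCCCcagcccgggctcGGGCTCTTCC
Ccl20: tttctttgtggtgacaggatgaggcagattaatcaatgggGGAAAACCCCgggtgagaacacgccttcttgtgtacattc
They lie at chr5:90891125-90891204, chr5:90903779-90903858, chr5:90785981-90786060 and chr1:83116646-83116725, on the plus strand. Matches start between 97 and 50 bases before the start site in each of the 4 windows. A match describes the letters only and says nothing of binding. The motif is not shared by all of the genes that were higher in MEF, nor is it confined to them, since *Cxcl10* was lower in MEF and *Ccl9* and *Ccr6* did not meet the call rule.

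Of the 3 interferon-induced CXC ligands, attractants of activated T cells, 2 were lower in MEF and 1 was not called. *Cxcl10* had 75.2 and 62.4 in MEF, 206 and 313 in the pre-iPS line and 323, 491 and 705 as the lowest, median and highest of the iPS libraries. MEF was below every other library, with a log2 fold change of -2.85 ± 0.25 against iPS (limma adjusted p = 7.54e-06). *Cxcl11* had 9.4 and 7.42 in MEF and 12.5 to 158 in the iPS libraries. It was called lower in MEF (-2.28 ± 0.80, adjusted p = 0.027), but the call was lost with either MEF library left out (adjusted p = 0.0914 and 0.131), without the control or the clone 2 library of passage 5 (0.0534 and 0.0501), and with quantile normalization (0.266) or housekeeping scaling (0.0507). *Cxcl9* had 14.2 and 13.7 in MEF and 5.37 to 10.4 in the iPS libraries and was not called (0.82 ± 0.38, adjusted p = 0.0729). It was called higher in MEF with quantile normalization (2.00, adjusted p = 0.000923) and with housekeeping scaling (adjusted p = 0.0171). *Cxcl11* is annotated as a polymorphic pseudogene and shares 41.7% of its exonic bases with an antisense pseudogene, and the library kit did not mark strand, so its reads cannot be assigned with certainty. Their receptor *Cxcr3* was listed at 0.01 to 6.26 in all 10 libraries and did not pass the filter.

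The *Cxcl10* window held the NF-kB-like motif at 2 places and, in addition, an ISRE-like motif (GAAANNGAAA, as bound by interferon-activated factors), which was found in 3 of the 33 genes (*Cxcl10*, *Cxcl14* and *Ccl19*) and in 3.44% of all windows. The stretch from 220 to 91 bases before its start is shown because *Cxcl10* alone among the 33 held both motifs, with the matches in capitals.
Cxcl10: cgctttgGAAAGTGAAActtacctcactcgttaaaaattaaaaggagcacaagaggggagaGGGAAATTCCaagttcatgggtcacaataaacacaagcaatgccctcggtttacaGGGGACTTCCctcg
It lies at chr5:92348980-92349109 on the minus strand.

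The remaining CXC ligands held the highest values of all. *Cxcl12*, which signals through *Cxcr4* and is taken up by the atypical receptor *Cxcr7* (also named *Ackr3*), had 64163 and 65163 in MEF, 1054 and 839 in the pre-iPS line, and 1446, 1655 and 1796 as the lowest, median and highest of the iPS libraries. MEF exceeded iPS cells by 5.32 ± 0.11 on the log2 scale (limma adjusted p = 4.43e-09), and the iPS mean was 2.52% of the MEF mean. The 12 fibroblast markers ran from 0.12% (*Lum*) to 26.4% (*Twist2*), a range too wide for a share within it to be informative. It also held *Cx3cr1*, at 1.47%. The part of remaining fibroblasts, or of the irradiated MEF on which such lines can be grown, in the iPS values was not tested. The receptors of Cxcl12 did not move by a like amount. *Cxcr4* had 81.5 and 77.1 in MEF and 40.8 to 91.2 in iPS libraries (0.23 ± 0.23, adjusted p = 0.381), so the ranges overlapped. *Cxcr7* had 2992 and 2969 in MEF, 1368 and 1206 in the pre-iPS line and 576, 739 and 1295 as the lowest, median and highest of the iPS libraries (1.86 ± 0.26, adjusted p = 0.000177). *Cxcl14*, a chemokine of epithelia and stroma, had 9999 and 9914 in MEF and 59.95, 96.0 and 156 in the iPS libraries, 6.70 ± 0.25 (adjusted p = 5.95e-08). *Cxcl16*, a membrane-bound ligand, had 456 and 486 in MEF, 510.1 and 425 in the pre-iPS line and 328 to 631 in iPS libraries, which overlapped in full (0.06 ± 0.18, adjusted p = 0.753). It shares 18.3% of its exonic bases with *Zmynd15* on the opposite strand. Its receptor *Cxcr6* had 23.5 and 19.1 in MEF and 3.13 to 13.4 in iPS libraries (1.38 ± 0.42, adjusted p = 0.014), a call lost without either MEF library (adjusted p = 0.0975 and 0.0504).

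Of 14 CC ligands tested, 8 were higher in MEF and 2 lower. The monocyte and eosinophil attractants *Ccl2*, *Ccl7*, *Ccl8*, *Ccl11* and *Ccl12*, which are neighbours between chr11:82035571-82037453 (*Ccl2*) and chr11:82115185-82116799 (*Ccl8*), were all higher, but to very different degrees. *Ccl7* had 2363 and 2415 in MEF and 47.4, 117 and 289 as the lowest, median and highest of the iPS libraries (log2 fold change 4.40 ± 0.37, limma adjusted p = 5.95e-06). *Ccl2* was nearly as high in MEF, with 1997 and 2041, but the iPS libraries kept 585, 1077 and 1378 and pre-iPS cells 657 and 728. Its difference was 1.04 ± 0.22 (adjusted p = 0.00184), which fell below the required fold without the control library of passage 5 (0.90), without the clone 2 library of passage 25 (0.94) and with quantile normalization (0.86). *Ccl8* had 155 and 146 in MEF and 3.58, 5.17 and 12.4 in the iPS libraries (4.40 ± 0.53, adjusted p = 6.24e-05). *Ccl12* had 83.6 and 100.1 in MEF, which were 165 reads, and the 6 iPS libraries held 4 reads in all. The ratio was 143, with a counting interval of 54.9 to 532 (95%, exact binomial; counting error only). *Ccl11*, the eosinophil attractant eotaxin, had 62.6 and 59.2 in MEF and between 1.05 and 65.5 in the iPS libraries, so these groups overlapped in spite of the call (2.99 ± 0.57, adjusted p = 0.00107).

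A further group on chromosome 11 held members of either direction. *Ccl5*, a T cell and macrophage attractant and a known interferon-regulatory-factor target, had 24.2 and 10.7 in MEF, 293 and 442 in the pre-iPS line and 294, 415 and 753 as the lowest, median and highest of the iPS libraries. All 8 reprogrammed libraries were above MEF, with a log2 difference, MEF less iPS, of -4.67 ± 0.39 (limma adjusted p = 5.93e-06). *Ccl6* and *Ccl4*, macrophage products, were higher in MEF (3.41 ± 0.44 and 2.85 ± 0.53). *Ccl4* had 52.5 and 60.1 in MEF and 1.98 to 17.7 in iPS libraries. *Ccl3*, its neighbour, had 39.4 and 47.4 in MEF and 28.8, 78.5 and 215 in the iPS libraries and was not called (-0.92 ± 0.34, adjusted p = 0.0337). *Ccl9* was likewise below the required fold, at 253 and 278 in MEF against 366 to 487 (-0.69 ± 0.13, adjusted p = 0.00113). Outside these groups, *Ccl20*, which attracts *Ccr6*-bearing cells, had 79.5 and 56.2 in MEF and 6.26 to 42.6 in iPS libraries. It was called higher (2.04 ± 0.76, adjusted p = 0.0342), but not without either MEF library (adjusted p = 0.172 and 0.0931) nor without the passage 25 library of any one iPS line (0.0614 to 0.0629). *Ccl28*, an epithelial chemokine, had 2.46 and 4.2 in MEF and 10.3 to 31.7 in iPS libraries (-2.30 ± 0.39, adjusted p = 0.000567), a call lost with quantile normalization (-0.96). *Ccl25* and *Ccl27a* differed by less than the required fold, with -0.21 ± 0.18 and 0.22 ± 0.23. *Ccl25* had 102 and 116 in MEF and 105 to 155 in iPS libraries, and its receptor *Ccr9* was at 4.25 to 9.18 in all 10 libraries.

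**Figure D3:**
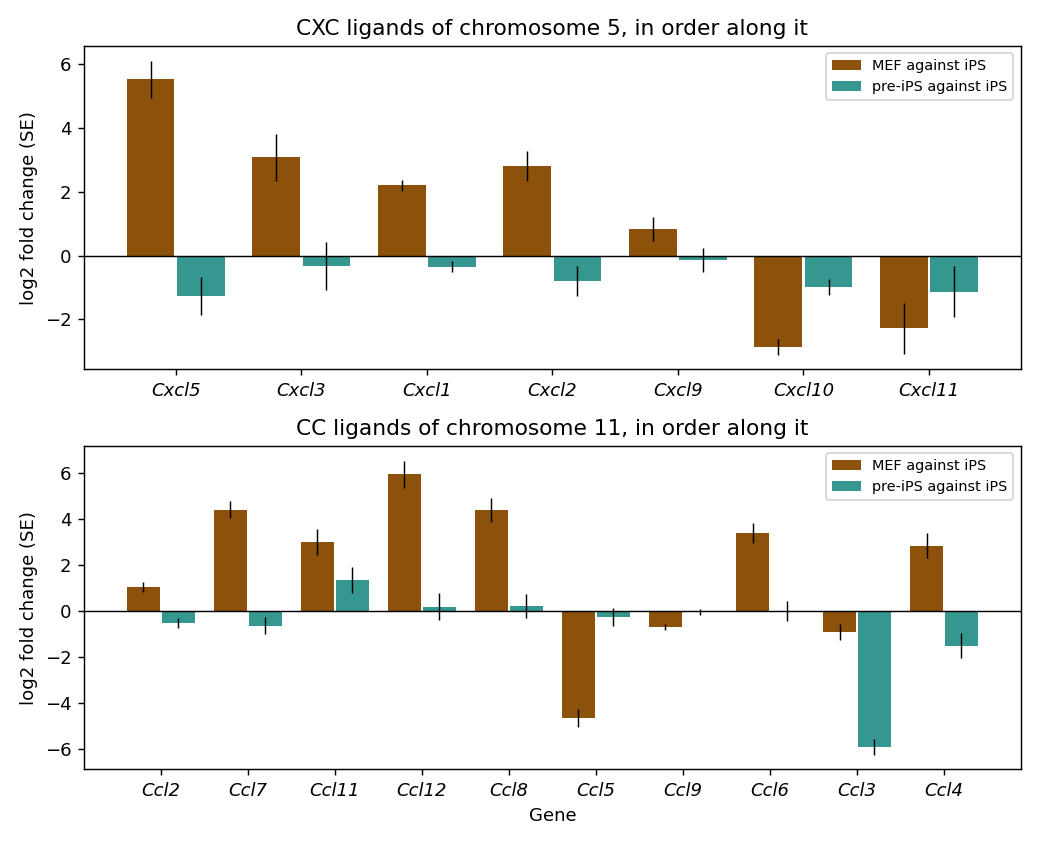
Bars give the log2 fold change (SE, limma) of MEF and of pre-iPS cells against the mean of the 3 iPS lines for the CXC ligands of chromosome 5 and the CC ligands of chromosome 11, in their order along the chromosome. Genes of the same chromosome differ in sign for MEF, as *Cxcl2* (2.81) and *Cxcl10* (-2.85) or *Ccl8* (4.40) and *Ccl5* (-4.67) do. *Ccl3* (-5.90) has the longest bar for pre-iPS cells.

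Both members of the CX3C pair were higher in MEF. *Cx3cl1* (fractalkine, a membrane-anchored chemokine) had 2890.5 and 2903 in MEF, 985 and 1072 in the pre-iPS line and 565, 623 and 954 as the lowest, median and highest of the iPS libraries, 2.10 ± 0.17 on the log2 scale (limma adjusted p = 5.45e-06). *Cx3cr1*, its receptor on monocytes and macrophages, had 752 and 716 in MEF and 6.12 to 17.3 in the other 8 libraries, 6.002 ± 0.41 (adjusted p = 1.52e-06). The ligand thus remained at 23.8% of its MEF level in iPS cells, and the receptor at 1.47%.

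Of 7 CC receptors tested, 4 were higher in MEF, among them receptors of monocytes and macrophages and of skin-homing lymphocytes. *Ccr1* had 52.1 and 51.7 in MEF and 0 to 7.98 in the other libraries (3.89 ± 0.37, limma adjusted p = 1.28e-05). *Ccr2*, the receptor of Ccl2, had 19.96 and 15.9 in MEF and 1.05 to 10.9 elsewhere (2.03 ± 0.41, adjusted p = 0.00155). *Ccr10*, the receptor of Ccl27a and Ccl28, had 25.0 and 27.4 in MEF and 3.13 to 14.3 elsewhere (1.96 ± 0.50, adjusted p = 0.00609). *Ccr1* and *Ccr2* were higher in MEF as most macrophage markers given above were. *Ccr10* was not called in pre-iPS cells against MEF (-0.97 ± 0.62, limma adjusted p = 0.187). The part of macrophages in the MEF libraries in these differences was not tested.

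Among the receptors lower in MEF were *Ccr7* and *Ccr4*, at low levels. *Ccr7*, which guides cells to lymph nodes, had 4.68 and 3.19 in MEF, 9.18 and 7.68 in the pre-iPS line and 17.7, 20.4 and 48.4 as the lowest, median and highest of the iPS libraries (-2.30 ± 0.34, limma adjusted p = 0.000238). *Ccr4*, a receptor of helper T cells, had 3.55 and 3.18 in MEF and 10.3 to 20.9 in iPS libraries (-1.80 ± 0.35, adjusted p = 0.00121). With quantile normalization these became -0.99 and -0.47 and were no longer called. *Cxcr5*, the receptor of B cells in follicles, was higher in MEF, with 20.1 and 19.0 against 0.88 to 5.8 (2.44 ± 0.46, adjusted p = 0.00099). Of 5 lymphocyte markers tested, 4 were lower in MEF. The summed level of that list was 20.2 and 22.1 in MEF and 65.7 to 215 in iPS libraries. *Cd3e* and *Cd79b* were at 0 in MEF. *Cd3d*, the marker not called, had 13.0 and 11.6 in MEF and 4.83 to 12.5 in iPS libraries. The part of lymphocytes in these receptor values was not tested.

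The pre-iPS line asks how much of this also differs in a partially reprogrammed line. It is a separate line and not an earlier stage of the iPS lines. Against MEF, 28 of the 38 genes differed in pre-iPS cells, 23 lower and 5 higher, with 43.2% of all genes called, 20.9% lower and 22.4% higher. *Cxcl12* had a log2 fold change of -6.10 ± 0.13, *Cxcl5* of -6.78 ± 0.72 and *Ccl7* of -5.03 ± 0.45. The higher ones were *Ccl5* (4.39 ± 0.48), *Ccr6* (3.76 ± 0.68), *Ccl28* (2.39 ± 0.48), *Cxcl10* (1.88 ± 0.31) and *Cxcr2* (1.27 ± 0.15), the last below the required fold with housekeeping scaling (0.86). This comparison shares the MEF libraries with the one above and the pre-iPS libraries with the next.

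Against the iPS lines 5 of the 38 genes differed in pre-iPS cells, 2 higher and 3 lower. Among all genes 16.3% were called, 4.71% higher and 11.6% lower. The median log2 fold change was -0.22 over the 38 genes and 0.00 over all genes. *Ccr6*, the receptor of Ccl20 on lymphocytes and dendritic cells, had 23.5 and 24.0 in pre-iPS cells, 2.28 and 0.01 in MEF and 0 to 2.06 in the iPS libraries. The pre-iPS libraries held 48 reads and the 6 iPS libraries 4, a ratio of 36.9 with a counting interval of 13.5 to 141, and the log2 fold change was 4.03 ± 0.55 (limma adjusted p = 0.000756). *Cxcl14* had 291 and 233 in pre-iPS cells, above all iPS libraries (59.95 to 156), 1.45 ± 0.25 (adjusted p = 0.0023), and still far below MEF. *Ccl3* had 0 and 0.96 in pre-iPS cells, or 1 read, against 624 reads in the iPS libraries, whose lowest value was 28.8. The ratio of iPS to pre-iPS was 203, with a counting interval of 36.3 to 8027, and the log2 fold change was -5.90 ± 0.34 (adjusted p = 7.95e-06).

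MEF held 39.4 and 47.4 of *Ccl3*, so that the pre-iPS line lay below the cells it came from and below the iPS lines alike (log2 fold change against MEF -4.98 ± 0.42, limma adjusted p = 8.95e-06). *Ccr7* was lower in pre-iPS than in iPS cells (-1.35 ± 0.34, adjusted p = 0.0141), as was *Cxcr4*, with 30.6 and 35.5 against 40.8, 71.4 and 91.2 as the lowest, median and highest (-1.01 ± 0.23, adjusted p = 0.00884). For each of these 5 genes no iPS library overlapped with pre-iPS cells. The exact two-sided permutation test gave each p = 0.0357, the smallest that 2 against 6 libraries can give. The 5 genes had been called on these same libraries, which are passages of single lines, so this p adds no support to the calls. *Ccr7* and *Cxcr4* were not called with quantile normalization (adjusted p = 0.119 and 0.139) or without the pre-iPS library of passage 5 (0.0602 and 0.075), and *Ccr7* also not without that of passage 25 (0.0888). *Cxcr4* fell short of the required fold with a pseudocount of 5 (-0.94), without the passage 25 library of the control (-0.98) or clone 1 (-0.90), and without the passage 5 library of clone 2 (-0.97). With quantile normalization 4 genes were higher and 1 lower, where 16.7% of all genes were called. With the passage as a replicate block, 9 genes were called, with 17.3% of all genes called in that fit, the added ones being *Ccl11* (1.36, adjusted p = 0.0259), *Ccl20* (-1.53, 0.00456), *Ccl4* (-1.50, 0.00899) and *Cxcl5* (-1.27, 0.0289). Among macrophage markers, *Laptm5* and *Ptprc* were higher in pre-iPS than in iPS cells (log2 fold changes 2.77 and 1.39), while *C1qb*, *C1qc*, *Tyrobp* and *Emr1* were at 0 in both pre-iPS libraries.

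The question of the study was what Netrin-1 does during reprogramming, and this comparison sets iPS cells obtained with recombinant Netrin-1 against the control iPS line. Of the 38 genes, 2 differed, 1 higher and 1 lower in the rNetrin-1-derived lines, where 2.11% of all genes did (0.99% higher and 1.12% lower). *Ccl3* had 215 and 156 in the control line, 79.0 and 78.0 in clone 1 and 28.8 and 52.0 in clone 2, passage 5 first. Every control library was above every rNetrin-1-derived one, with a log2 fold change of -1.71 ± 0.36 (limma adjusted p = 0.0385). *Ccr1* had 0.96 and 0 in the control line, 7.98 and 4.11 in clone 1 and 3.97 and 3.58 in clone 2 (2.02 ± 0.39, adjusted p = 0.0287), which is 1 read in the control against 4 to 9 reads a library in the clones. With a pseudocount of 5 its log2 fold change was 0.84 (adjusted p = 0.0635), with a pseudocount of 0.5 *Ccl3* had an adjusted p of 0.083, and edgeR's test on the recovered reads gave *Ccr1* an adjusted p of 0.0782. Neither was called when only the lines compared were fitted (adjusted p = 0.0725 for *Ccl3* and 0.109 for *Ccr1*). Both calls were lost without either control library, either MEF library, or the passage 5 library of clone 1 or clone 2, and that of *Ccl3* also without clone 1 at passage 25, with adjusted p of 0.0783 to 0.208 for *Ccl3* and 0.0527 to 0.184 for *Ccr1*. The macrophage marker *Laptm5* was also higher in the rNetrin-1-derived lines (1.96 ± 0.12), the 1 of 16 called. *C1qb*, *C1qc*, *Tyrobp* and *Emr1* were at 0 to 4.47 in the iPS libraries. *Laptm5* was highest in pre-iPS cells, with 4719 and 4711, where these other markers were at 0. The part of macrophages in the values of *Ccl3* and *Ccr1* was not tested. The exact permutation test gave p = 0.0667 for *Ccl3* and for *Ccr1*, the smallest that 2 against 4 libraries allow. Both had been called on these same libraries, so this p adds no support to the calls.

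Some other genes differed visibly between these lines without passing the test. *Cxcr2* was highest in the control line, with 1469 and 1783 against 1054 and 993 in clone 1 and 842 and 1035 in clone 2, and had an adjusted p of 0.0234 but a log2 fold change of only -0.73 ± 0.13. *Cxcl14* had 59.95 and 61.5 in the control, 146 and 71.8 in clone 1 and 156 and 120.1 in clone 2 (0.95 ± 0.26, adjusted p = 0.0943). *Ccl7* was at 47.4 and 74.0 in the control, 289 and 167 in clone 1 and 161 and 72.6 in clone 2 (1.37 ± 0.39, adjusted p = 0.105). *Ccl11* set clone 2 apart: it had 65.5 and 21.5 there, 3.54 and 3.08 in clone 1 and 2.9 and 1.05 in the control. The difference of clone 2 from clone 1 was 3.17 ± 0.69 (adjusted p = 0.0698), and with the passage as a replicate block its adjusted p was 0.0222. By the same block *Ccl11* was also called between rNetrin-1-derived and control lines (2.19, adjusted p = 0.0236). Without the block, 0 of the 38 genes differed between the clones by limma or by edgeR, where limma called 0.966% and edgeR 1.13% of all genes and 2831 of the 17075 had an unadjusted p under 0.05. The clones differed in 3 of the 9 pluripotency genes, *Nanog* (1.37), *Zfp42* (2.27) and *Esrrb* (2.35), all higher in clone 2, and their part in the values of *Ccl11* was not tested. *Cxcl12* (0.05 ± 0.11), *Cxcl1* (0.23 ± 0.19) and *Ccl5* (0.05 ± 0.42) had small fold changes between rNetrin-1-derived and control lines.

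The passages, 25 against 5, were compared within lines in the 8 libraries of reprogrammed cells. Of the 38 genes, 2 fell and 0 rose, where 1.29% of all genes fell and 0.398% rose (1.69% in all); edgeR called 3 lower and 0 higher, with 1.87% of all genes called and 0.562% higher. *Ccl20* went from 10.2 to 1.92 in pre-iPS cells, from 25.1 to 6.26 in the control, from 23.1 to 8.21 in clone 1 and from 42.6 to 9.85 in clone 2. It was lower at passage 25 in 4 of 4 lines, with a log2 fold change of -1.80 ± 0.25 (limma adjusted p = 0.0083). *Cxcl11* went from 23.5 to 16.3, from 98.6 to 29.2, from 158 to 22.6 and from 55.5 to 12.5 in the same order (-1.76 ± 0.36, adjusted p = 0.0258). This call was lost when a library of any one of the iPS lines was left out (adjusted p of 0.0594 to 0.129). *Cxcl10* had higher values at passage 25 in 4 of 4 lines but not by the required fold (0.53 ± 0.10, adjusted p = 0.0205), as did the CC ligand *Ccl5* (0.74 ± 0.11, adjusted p = 0.0107), while *Cxcl9* had higher values in 2 lines and lower ones in 2 (0.28 ± 0.35, adjusted p = 0.64). *Ccl4* was not called either, with higher values at passage 25 in 4 of 4 lines (1.13 ± 0.29, adjusted p = 0.0507). *Ccl11*, *Cxcl5* and *Ccr10* had lower values at passage 25 in 4 of 4 lines, uncalled, with log2 fold changes of -1.12, -1.20 and -0.98 and adjusted p of 0.0809, 0.06 and 0.0921. edgeR called *Ccl11* too (-1.53, adjusted p = 0.026). Among 16 macrophage markers tested, 2 fell with passage and 0 rose. These were *Cd68* and *Csf1r* (log2 fold changes -1.07 and -1.48), while *Cd53*, uncalled, had higher values at passage 25 in every line. The part of these markers in the chemokine values was not tested.

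**Figure D4:**
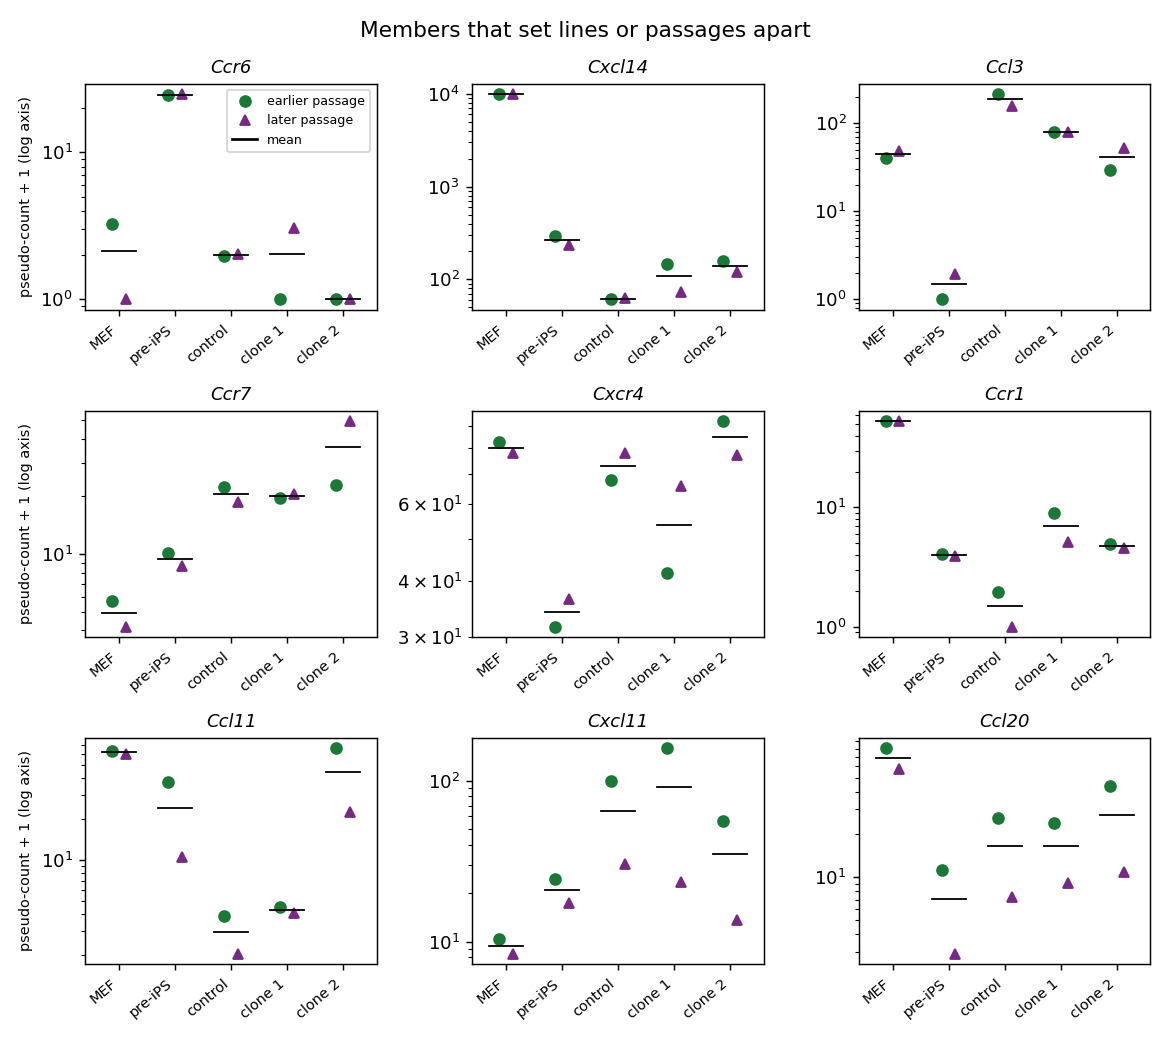
Each panel plots pseudo-count + 1 of a gene on a log axis for the 5 lines, with a circle for the earlier passage (2 in MEF, 5 elsewhere), a triangle for the later one (4 or 25) and a bar for their mean. *Ccr6* stands out in pre-iPS cells, *Ccl3* is near 0 there, *Ccl11* is high in clone 2 among the iPS lines, and the triangles of *Ccl20* and *Cxcl11* lie below the circles in every line.

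Lists of genes that act before and after the chemokines were examined in the same fit, in which 21.6% of all genes were higher and 26.6% lower in MEF than in iPS cells. Of 25 genes of NF-kB and cytokine input tested, 10 were higher in MEF than in iPS cells and 3 lower, with a median log2 fold change of 0.61. The higher ones included the interleukin-1 receptor *Il1r1* (3.91 ± 0.18, limma adjusted p = 1.5e-07), the TNF receptor *Tnfrsf1a* (2.79 ± 0.11), *Tlr4* (1.77 ± 0.23) and its adaptor *Myd88* (1.52 ± 0.08). *Nfkbia*, an inhibitor of NF-kB, *Il33* and *Il1a* were lower. Of 11 genes of interferon input, 5 were higher in MEF and 0 lower: *Ifnar1* (1.30), *Ifnar2* (2.15), *Ifngr1* (1.03), *Ifngr2* (1.92) and *Jak1* (2.31). *Cxcl10* and *Ccl5*, targets of that pathway, were lower in MEF. Of 25 genes of receptor signalling, 7 were higher and 3 lower in MEF, among the former the leukocyte genes *Pik3cg* (5.46 ± 0.44), *Rgs1* (4.88 ± 0.37) and *Dock2* (3.03 ± 0.30).

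In pre-iPS against iPS cells the input lists moved little, with 0 of 25 NF-kB genes called and *Irf7* the 1 interferon gene called (1.20 ± 0.32, limma adjusted p = 0.0179). Of the 25 signalling genes 4 were lower and 0 higher, beside 11.6% and 4.71% of all genes. The G-protein subunit *Gng2* had 41.8 and 44.2 in pre-iPS cells against 622 to 1316 in iPS libraries (-4.37 ± 0.21, adjusted p = 3.84e-06), and the receptor kinase *Adrbk2*, arrestin *Arrb1* and *Dock2* had -3.57, -2.17 and -1.85. Between rNetrin-1-derived and control lines, *Il6* was the 1 gene called (1.77 ± 0.33, limma adjusted p = 0.0271) of these lists of 25, 11 and 25 genes, beside 2.11% of all genes. It was low in these lines, with 2.9 and 4.18 in the control and 12.3 to 18.8 in the clones. Of the 25 NF-kB genes, *Il1a* and *Tnf* were lower at passage 25 (-1.33 and -1.23), where 1.29% of all genes fell.

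The 8 genes without a test were all low. *Ccl17*, *Ccl19*, *Ccl22*, *Cxcl17*, *Cxcr1*, *Cxcr3*, *Ccr8* and *Ccr9* had values of 0 to 12.9 in every library. Of these, *Ccl22*, a macrophage and dendritic cell product, and *Ccr8* had 0 reads in both MEF libraries and at most 3.08 and 8.95 elsewhere. A count of 0 allows up to 3 reads in a library, and no difference among these genes was tested.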

How the data were processed

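RNA of 10 libraries (5 lines, 2 passages each) was sequenced as 50-base single reads after TruSeq poly(A) preparation, which did not mark strand. The signal values analysed are pseudo-counts as the authors deposited them: read counts per gene, adjusted by edgeR to equal library sizes. The submitters' processing notes name FastQC, CASAVA 1.8.2, TopHat2 2.0.8b, HTSeq 0.5.3p9, edgeR and the mm10 build; the annotation and strand setting are not given in the sources used here. Libraries held 38110410 to 52946858 reads on genes.

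The 17075 of 18901 genes that reached 10 in 2 or more libraries were tested as log2(value + 1) with limma 3.58.1 in R 4.3.3, 1 mean per line over all 10 libraries, and for passage within lines over 8 libraries. A fold change on this scale understates the change of low genes. Calls needed a p below 0.05 after Benjamini-Hochberg adjustment together with a log2 fold change of 1 or more in size. In the reprogrammed lines 100% of the deposited values were whole multiples of 1 read (tolerance 0.1 read). The MEF values were not, and their reads were recovered by undoing edgeR's adjustment with fitted settings. After this step 99.99% (passage 2) and 98.2% (passage 4) of the MEF values were whole. On the recovered reads edgeR 4.0.16's quasi-likelihood test was run too, an alternative added after the data were seen. Same-numbered passages deviated together in all 6 pairs of reprogrammed lines (correlation 0.235 to 0.504, mean 0.353), so the passage pairs these libraries, and a fit with it as a replicate block was made.

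The members and gene lists were chosen with earlier results of these data known. Genes were named if called among iPS lines, by passage or in pre-iPS against iPS cells, if among the 10 largest changes of MEF against iPS, if among the 5 highest per kilobase, or as textbook ligand and receptor pairs; further members are given to account for each family. Levels per kilobase used GENCODE M21 exons. Alternatives were other pseudocounts, filters and call rules, quantile and housekeeping scaling, only the lines compared, the block and leaving out each library. The scripts were tested on simulated data. The values of 1 member are not reported here and not plotted; counts over members include it.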

Additional observations from a re-analysis of the deposited data

Results flagged for a closer look

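Within the 6 iPS libraries, 2 of 32 members tested had a library that stood far from the rest. *Ccl11* was at 65.5 in clone 2 at passage 5, where the next library, clone 2 at passage 25, was at 21.5, and the gap to the nearest library was 0.682 of the whole range. *Ccr7* was at 48.4 in clone 2 at passage 25, with the other 5 libraries at 17.7 to 21.8, and the gap was 0.867 of the range. Both exceed 0.625, the 95% critical value of Dixon's test for 6 samples. Chance flags about 1 in 20 such groups.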

How the results depend on the processing

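The count of members called in MEF against iPS (30) was 12 when a mean value of at least 50 was required, which leaves fewer genes tested. Of all genes 44.1% were called with the filter and 48.2% without. In pre-iPS against iPS cells (5) it was 3 with that filter (12.5% of all genes called), 9 by adjusted p alone (39.6%), 9 with the replicate block (17.3%), 4 with a pseudocount of 5 (15.2%) and 3 to 7 with a library left out, and in pre-iPS against MEF (28) it was 14 with that filter (41% of all genes) and 28 to 30. For rNetrin-1-derived against control lines (2) it was 1 with a pseudocount of 5 (2.66% of all genes), 1 with a pseudocount of 0.5 (1.85%), 1 with that filter (2.07%) and 1 by edgeR (2.27%). It was 0 in limma when only the lines compared were fitted (0.785% of all genes), where 2319 genes had an unadjusted p under 0.05. Between the clones (0) it was 1 with the replicate block (1.92%), and for passage (2) it was 1 with that filter (1.46% of all genes) and 5 by adjusted p alone (10.9%). With a library left out, the share of all genes called moved in every comparison. The count of members moved in every comparison but that of the clones. Other than by the filter's construction, the cause of these differences was not tested. MEF was taken at other passages and had no block.

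No member called changed direction under any of these settings. Of the 30 members called in MEF against iPS, 23 were called under every setting that kept them, of 5 in pre-iPS against iPS 3, of 28 in pre-iPS against MEF 26, of 2 for the rNetrin-1-derived lines 0, and of 2 for passage 1, *Ccl20*. Each reprogrammed line is 1 line, so line and treatment cannot be told apart, and low members such as *Ccr1* and *Ccr6* rest on few reads.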

Other observations

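Of 12 listed chemokine genes whose names do not follow the systematic pattern, 11 were tested. In MEF against iPS cells 2 were higher and 4 lower, beside 21.6% and 26.6% of all genes. *Ppbp* (also named *Cxcl7*), which lies among the ELR ligands, had 3955 and 3998 in MEF and 24.6 to 256 in iPS libraries, a log2 fold change of 5.42 ± 0.73 (limma adjusted p = 0.000127). *Pf4* (*Cxcl4*) had 78.8 and 67.7 in MEF and 0 to 3.13 in iPS libraries (4.95 ± 0.36).

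*Gpr182*, an atypical chemokine receptor, was the largest of the 4 that were lower. It had 16.8 and 21.1 in MEF, 1866 and 1053 in the pre-iPS line and 465 to 1819 in iPS libraries (-5.41 ± 0.38, limma adjusted p = 1.81e-06). *Dpp4*, a protease that trims chemokines, had 117 and 130 in MEF and 270 to 947 in iPS libraries (-1.99 ± 0.30). *Ccbp2* (*Ackr2*) and *Mif* were also lower, with log2 fold changes of -2.52 and -1.24. In pre-iPS against iPS cells *Darc* (*Ackr1*) and *Ccrl2* were higher (2.40 and 1.91), and *Cmklr1* and *Pf4* lower (-1.54 and -1.26), beside 4.71% and 11.6% of all genes. The 4 endothelial markers tested were lower in MEF as *Gpr182* was, and their part in its values was not tested. No gene of this list was called between rNetrin-1-derived and control lines, between the clones or by passage.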
